A study of Mus musculus with 12 samples.

Results

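The iron- and 2-oxoglutarate-dependent dioxygenases are a superfamily of enzymes that put an oxygen atom on a protein, nucleic acid or small molecule. The genes described here are a list of its members that leaves out the main hypoxia-inducible factor (HIF) hydroxylases. Of 45 genes listed by name, 40 were measured among 17097 genes in all. Each gene was represented by the probe set with 1 listed symbol and the highest mean over the 12 arrays, a choice that used no difference between groups. Kdm3b, Kdm6b, Tet1, Alkbh6 and P4ha1 had no such probe set and were not analysed here. The 40 measured genes comprised 13 histone lysine demethylases, 3 other Jumonji C (JmjC) proteins, 2 TET enzymes, 8 AlkB enzymes, 5 procollagen hydroxylases, 5 other protein hydroxylases and 4 enzymes of lipid and carnitine metabolism.

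RNA came from primary mouse embryonic fibroblasts (MEFs) of e14.5 embryos on a C57Bl/6 x 129Sv (F1) background, in 4 groups of 3 arrays. The groups were CBP/p300 null (dKO) MEFs with dipyridyl (DP), dKO MEFs with ethanol, wild-type MEFs with DP and wild-type MEFs with ethanol, the vehicle. The dKO cells began as lines homozygous for conditional alleles of both genes, and deletion rested on Cre delivered by adenovirus to the whole culture. Wild-type cells were given the same virus at passage 4, at a multiplicity of 100 and for 16 h, so exposure to Cre was common to all groups. All cells were also kept in 3% oxygen during infection and for 48 h after it, and then in normoxia for 24 h, before DP at 100 µM or ethanol was added for 3 h. Replicates were separately numbered MEF lines, 1, 5 and 6 for dKO and 3, 4 and 5 for wild type, each given both treatments, and line 5 of the dKO cells is not the line 5 of the wild-type cells. The sources used here do not say whether the lines came from separate embryos, so that p-values measure the spread between these lines.

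Enzymes of this superfamily hold ferrous iron at the active site and consume oxygen and 2-oxoglutarate, releasing succinate and carbon dioxide. JmjC demethylases remove methyl groups from histone lysines, TET enzymes oxidise methylcytosine in DNA, and AlkB enzymes strip methyl groups from DNA, RNA or protein. In fibroblasts the prolyl and lysyl hydroxylases of the endoplasmic reticulum modify procollagen, which the triple helix and the cross-links of the fibre depend on. DP binds iron, the metal that these enzymes need, and is used to mimic low oxygen, since it also blocks the HIF hydroxylases. Transcripts of several family members, among them Kdm3a, Kdm4b, P4ha2 and Plod2, are textbook examples of genes that HIF induces. CBP and p300 are paralogous acetyltransferases that act as coactivators of HIF and many other transcription factors. The arrays measure transcripts, and the activity of the enzymes was not measured.

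Median log2 values lay between 3.87 and 3.98 over the 12 arrays, and blank control probe sets had a 95th percentile of 3.28 to 3.54. Crebbp, which encodes CBP, differed by -0.85 ± 0.16 log2, dKO minus wild type, in ethanol (SE, limma, adjusted p = 0.000992) and -0.76 ± 0.16 under DP (adjusted p = 0.0022). The sources used here do not place its probe set inside or outside the deleted exons, and the p300 gene was not analysed here. Xist, transcribed from the inactive X chromosome, read 3.94 to 5.32 log2 on the 6 dKO arrays and 10.3 to 10.7 on the 6 wild-type arrays, while Y-linked Eif2s3y read 7.08 to 8.93 on the dKO arrays and 2.49 to 3.29 on the wild-type arrays, so genotype and the sex of the lines cannot be told apart. In both treatments the dKO cells had a called lower level of all 10 fibroblast markers. Their summed level (log2 of the summed linear values) was 13.4 to 13.8 in dKO DP, 13.3 to 13.8 in dKO ethanol, 15.1 on all wild-type DP arrays and 15.0 on all wild-type ethanol arrays. Col1a2 was near the blank controls in 1 group and the other 9 were above them. Markers of other cell types also differed between genotypes. Of 6 macrophage markers, 2 were called higher and 2 lower in dKO cells in ethanol and 2 and 3 under DP, and their summed level was 7.77 to 8.23 on the dKO arrays and 7.71 to 9.32 on the wild-type arrays. Lyz2 read 3.41 to 5.14 on the dKO arrays and 6.77 to 8.88 on the wild-type arrays, Cd68 6.30 to 7.23 on the dKO and 4.66 to 5.88 on the wild-type arrays, and Ptprc was near the blank controls in all groups. Of 5 epithelial markers, 4 were lower in dKO cells in ethanol and 2 under DP (summed level 6.31 to 6.73 on the dKO and 7.68 to 8.05 on the wild-type arrays), with Krt18 at 4.74 to 5.61 in dKO and 6.84 to 7.30 in wild-type cells, while Cdh1 was near the blank controls in all groups. Of 5 endothelial markers, 0 were called in ethanol and 2 were lower under DP (5.41 to 5.66 on the dKO and 5.59 to 5.83 on the wild-type arrays), and Pecam1, Tek and Tie1 were near the blank controls in all groups. Of 4 muscle markers, 1 was lower in each treatment (6.74 to 7.77 on the dKO and 8.09 to 8.76 on the wild-type arrays), with Myod1 near the blank controls in all groups. Of 4 neural markers, 1 was lower in ethanol and 2 under DP (6.05 to 6.61 on the dKO and 7.56 to 8.24 on the wild-type arrays), and Hba-a1, the single erythroid marker measured, was not called (3.56 to 6.22 on the dKO and 3.87 to 7.06 on the wild-type arrays). The beta-actin 3' minus 5' difference, a measure of RNA integrity and labelling, was 0.48 to 0.60 in dKO DP, 0.40 to 0.45 in dKO ethanol, 0.28 to 0.38 in wild-type DP and 0.23 to 0.25 in wild-type ethanol. That of Gapdh was 0.10 to 0.19, 0.19 to 0.21, 0.04 to 0.17 and -0.03 to 0.15 in the same order, so it did not rise with DP in dKO cells. The ethanol arrays of dKO line 1 and wild-type line 5 stood apart from the other arrays of their groups. Mean correlation within the group was 0.9887 for this dKO array, against 0.9915 and 0.9935 for lines 5 and 6. For the wild-type array it was 0.9897, against 0.9930 and 0.9934 for lines 3 and 4. Both were picked from these same data, and calls that change without them are given with both values. Genotype differences under DP do not use these arrays. Leaving them out changes only the SE and adjusted p there, which is no separate support.

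DP for 3 h raised a small, mixed group of these transcripts in both genotypes. In dKO cells 7 of 40 members passed the threshold for a call, an adjusted p of 0.05 (17.5%), all of them higher, while 1.5% of all genes were called, 1.01% higher and 0.491% lower. In wild-type cells 12 of 40 were called (30.0%), 11 higher and 1 lower, while 4.73% of all genes were called, 3.05% higher and 1.67% lower. The 7 genes called in dKO cells were all among the 12: Kdm3a, Kdm4b, Kdm5b, Jmjd6, Alkbh5, P4ha2 and Plod2. The median change over the 40 members was 0.03 log2 in dKO and 0.14 in wild-type cells, beside -0.05 and -0.03 over all genes, so most members lay close to the rest of the array. Of the 33 members not called in dKO cells, 28 changed by less than 0.5 log2, as did 26 of the 28 not called in wild-type cells. Few members are dim, and among the 10258 genes left without the dimmest 40%, 2.96% were called in dKO and 8.08% in wild-type cells, beside 19.4% and 33.3% of the 36 members left. With the beta-actin difference given above as a covariate, 4 members stayed called in dKO cells (Alkbh5, Jmjd6, Kdm3a and Kdm4b) and 6 in wild-type cells (those 4 with Kdm5b and Plod2). Of all genes that fit called 86 in dKO and 350 in wild-type cells, against 256 and 808 without the covariate.

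**Figure D1:**
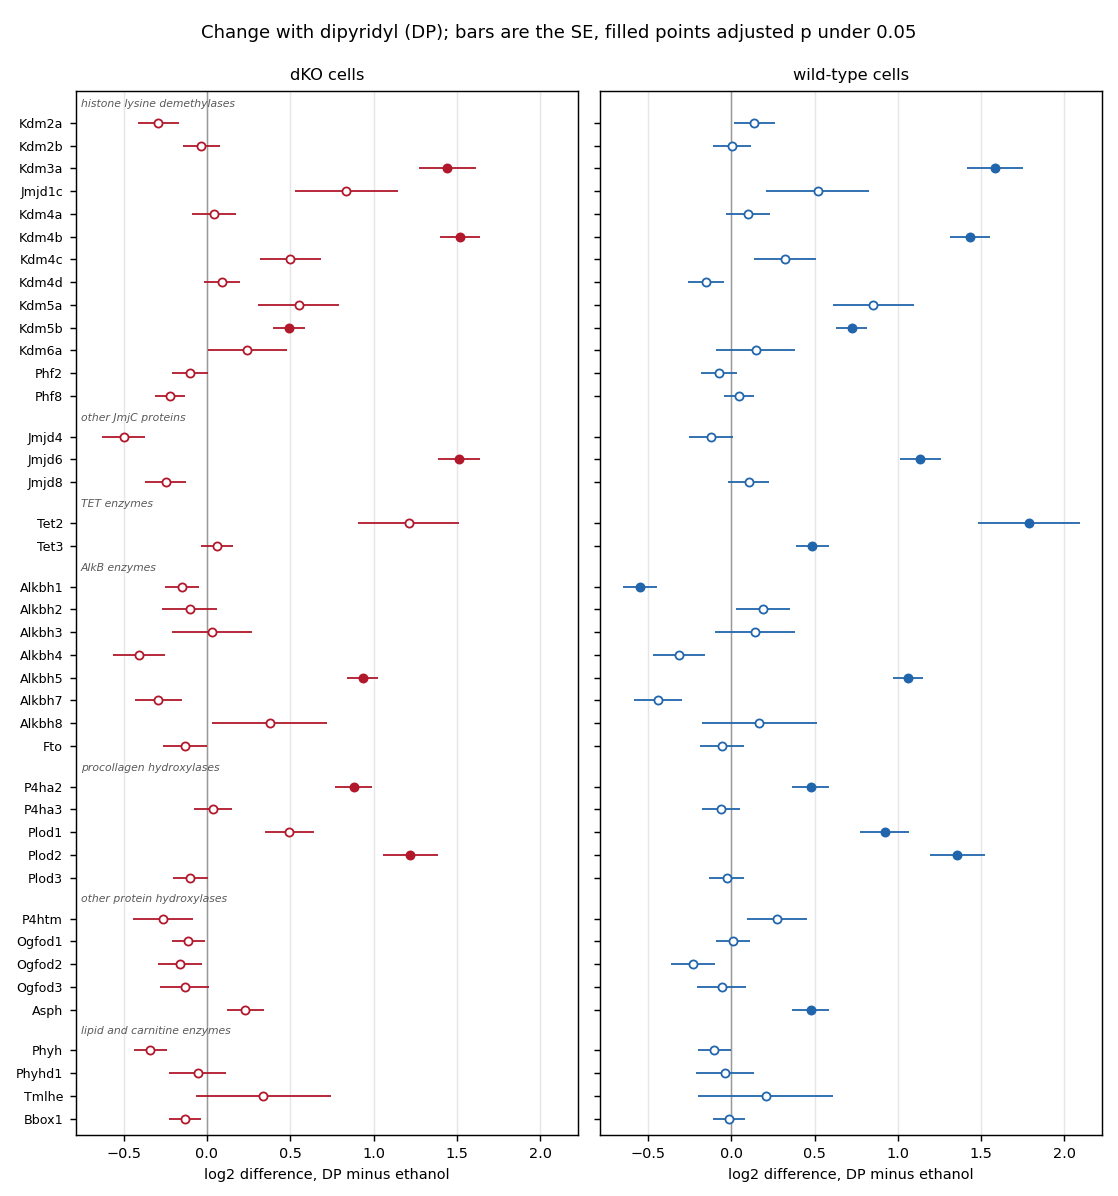
Change of each of the 40 measured genes with DP (log2 difference, DP minus ethanol, horizontal axis) in dKO cells on the left and in wild-type cells on the right. Points are limma estimates from 3 lines a group, bars are the SE, and filled points passed an adjusted p of 0.05. The 7 filled points in dKO cells all lie to the right of 0, and in wild-type cells 11 do and Alkbh1 lies to the left.

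Among histone lysine demethylases, 3 of 13 rose in each genotype and none fell. Kdm3a read 9.81, 9.92 and 9.84 log2 in dKO cells with DP, against 8.19, 8.55 and 8.50 with ethanol. Kdm3a in wild-type cells read 9.54, 9.43 and 9.24 with DP, against 7.92, 8.16 and 7.39 with ethanol. Every DP array lay above every ethanol array of its genotype. Kdm3a, which removes mono- and dimethyl groups of a repressive histone mark, thus rose 2.72-fold in dKO cells (log2 change 1.44 ± 0.17, SE, adjusted p = 0.000388) and 3-fold in wild-type cells (1.58 ± 0.17, adjusted p = 7.18e-05). Kdm4b read 7.33, 7.38 and 7.51 log2 in dKO cells with DP, against 6.08, 5.66 and 5.92 with ethanol. Kdm4b in wild-type cells read 6.59, 6.62 and 6.71 with DP, against 5.30, 5.03 and 5.29 with ethanol. Kdm4b, which acts on the trimethylated form of that mark, rose 2.87-fold in dKO cells (1.52 ± 0.12, adjusted p = 8.29e-06) and 2.7-fold in wild-type cells (1.43 ± 0.12, adjusted p = 6.36e-06), again with no overlap between treatments.

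Kdm5b read 10.05, 10.25 and 10.17 log2 in dKO cells with DP, against 9.66, 9.58 and 9.75 with ethanol. Kdm5b in wild-type cells read 10.14, 10.28 and 10.24 with DP, against 9.38, 9.53 and 9.57 with ethanol. Kdm5b, which erases a methyl mark of active promoters, moved less, rising by 0.49 ± 0.09 log2 in dKO cells (adjusted p = 0.0193) and by 0.72 ± 0.09 in wild-type cells (adjusted p = 0.000414). The dKO call was lost on leaving out the DP array of line 5 (0.45, adjusted p = 0.095) or of line 6 (0.49, 0.0861), or the ethanol array of line 1 (0.49, 0.0559) or of line 5 (0.45, 0.0583). Its paralogue Kdm5a changed by 0.55 ± 0.24 in dKO cells (adjusted p = 0.341) and by 0.85 ± 0.24 in wild-type cells (0.0763), and without the 2 ethanol arrays that stood apart its change was 0.27 in dKO cells (adjusted p = 0.274) and 0.57 in wild-type cells (adjusted p = 0.00532). Jmjd1c, a relative of Kdm3a, and Kdm4c also read higher on every DP array than on the ethanol array of the same line, with changes of 0.84 and 0.50 in dKO cells and 0.52 and 0.32 in wild-type cells that did not pass the test. Without the 2 ethanol arrays that stood apart these changes were 0.48 and 0.29 in dKO cells and 0.16 and 0.14 in wild-type cells. Kdm6a, an X-linked eraser of the Polycomb mark, changed by 0.24 ± 0.24 in dKO and 0.15 ± 0.24 in wild-type cells (adjusted p = 0.667 and 0.841), and by -0.01 in dKO and -0.13 in wild-type cells without those arrays. Kdm2a, Kdm2b, Phf2 and Phf8 changed by at most 0.29 in size in either genotype, and Kdm4a and Kdm4d were near the blank controls in all 4 groups.

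Jmjd6 read 9.42, 9.52 and 9.52 log2 in dKO cells with DP, against 8.26, 7.77 and 7.91 with ethanol. Jmjd6 in wild-type cells read 9.79, 9.72 and 9.68 with DP, against 8.53, 8.48 and 8.77 with ethanol. Jmjd6, a JmjC protein that hydroxylates lysines of splicing factors, rose 2.86-fold in dKO cells (1.51 ± 0.12 log2, adjusted p = 1.31e-05) and 2.2-fold in wild-type cells (1.14 ± 0.12, adjusted p = 9.12e-05). A dim second probe set of the gene changed by 0.09 in dKO cells (adjusted p = 0.841) and by 0.38 in wild-type cells (adjusted p = 0.329). Jmjd4, which hydroxylates a translation termination factor, changed by -0.50 ± 0.13 in dKO cells (adjusted p = 0.0973), and Jmjd8 of the endoplasmic reticulum by -0.25 ± 0.12, neither of which passed the test.

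Of the 8 AlkB enzymes, Alkbh5 rose in both genotypes and Alkbh1 fell in wild-type cells. Alkbh5 read 10.67, 10.76 and 10.85 log2 in dKO cells with DP, against 9.73, 9.78 and 9.97 with ethanol. Alkbh5 in wild-type cells read 10.32, 10.35 and 10.35 with DP, against 9.23, 9.34 and 9.28 with ethanol. Alkbh5 removes the methyl group from methyladenosine in mRNA, and it rose by 0.93 ± 0.09 log2 in dKO cells (adjusted p = 7.09e-05) and by 1.06 ± 0.09 in wild-type cells (adjusted p = 8.47e-06). Fto, the other eraser of methyladenosine, changed by -0.13 ± 0.13 and -0.06 ± 0.13 in the same cells (adjusted p = 0.678 and 0.896). Alkbh1, a demethylase of transfer RNA, read 6.57, 6.63 and 6.65 in wild-type cells with DP, against 7.24, 7.22 and 7.03 with ethanol, a log2 change of -0.55 ± 0.10 (adjusted p = 0.00623), and changed by -0.15 ± 0.10 in dKO cells (adjusted p = 0.508). Alkbh7, a mitochondrial member, changed by -0.44 ± 0.14 in wild-type cells (adjusted p = 0.127), and by -0.34 (adjusted p = 0.0397) without the 2 ethanol arrays that stood apart.

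Both measured TET enzymes were called higher with DP in wild-type cells and neither in dKO cells. Tet2 read 7.81, 7.99 and 7.83 log2 in dKO cells with DP, against 5.84, 7.19 and 6.97 with ethanol. Tet2 in wild-type cells read 7.59, 7.46 and 7.51 with DP, against 6.22, 5.80 and 5.18 with ethanol. The change of Tet2 was 1.79 ± 0.30 in wild-type cells (adjusted p = 0.00338), the largest of any member there, and 1.21 ± 0.30 in dKO cells (adjusted p = 0.0802), where the treatments did not overlap either. With the line entered as a block, the adjusted p in dKO cells was 0.0426, and without the 2 ethanol arrays that stood apart the dKO change was 0.80 (adjusted p = 0.00891). Tet3 read 5.31, 5.44 and 5.40 in wild-type cells with DP, against 4.95, 4.87 and 4.87 with ethanol (0.49 ± 0.10, adjusted p = 0.0102, and 0.46 with adjusted p = 0.056 without the DP array of line 4). In dKO cells Tet3 read 5.09, 4.84 and 4.75 with DP, against 4.82, 4.82 and 4.86 with ethanol, and the groups overlapped.

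Procollagen hydroxylases held 2 called members of 5 in dKO and 3 in wild-type cells, all higher. Plod2 read 10.74, 10.92 and 10.78 log2 in dKO cells with DP, against 9.27, 9.86 and 9.65 with ethanol. Plod2 in wild-type cells read 10.97, 11.06 and 10.98 with DP, against 9.56, 10.01 and 9.37 with ethanol. Plod2, the lysyl hydroxylase of collagen telopeptides, rose 2.33-fold in dKO cells (1.22 ± 0.17 log2, adjusted p = 0.00123) and 2.56-fold in wild-type cells (1.36 ± 0.17, adjusted p = 0.000232). P4ha2 read 10.16, 10.10 and 10.23 log2 in dKO cells with DP, against 9.46, 9.22 and 9.17 with ethanol. P4ha2 in wild-type cells read 11.03, 11.00 and 11.14 with DP, against 10.46, 10.50 and 10.79 with ethanol. P4ha2, a catalytic subunit of the collagen prolyl hydroxylase, rose by 0.88 ± 0.11 in dKO cells (adjusted p = 0.000734) and by 0.48 ± 0.11 in wild-type cells (adjusted p = 0.0273). The smaller wild-type change lost its call with each array median-centred (0.42, adjusted p = 0.111). It was also lost on leaving out the DP array of line 3 (0.49, adjusted p = 0.0767), 4 (0.50, 0.0717) or 5 (0.43, 0.125), or the ethanol array of line 3 (0.42, 0.106) or 4 (0.43, 0.107).

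Plod1 read 8.98, 9.04 and 9.03 log2 in dKO cells with DP, against 8.69, 8.42 and 8.46 with ethanol. Plod1 in wild-type cells read 10.19, 10.31 and 10.50 with DP, against 9.18, 9.27 and 9.79 with ethanol. Plod1, which hydroxylates lysines of the collagen helix, was called in wild-type cells (0.92 ± 0.15, adjusted p = 0.00221), and its dKO change of 0.49 ± 0.15 had an adjusted p of 0.157, or 0.0116 without the 2 ethanol arrays that stood apart (0.58). The other probe set of Plod1 changed by 0.09 in wild-type cells without passing (limma adjusted p = 0.81). P4ha3 and Plod3 changed by at most 0.10 in size in either genotype. Among the other protein hydroxylases, Asph, which hydroxylates epidermal growth factor-like domains, read 9.37, 9.35 and 9.57 in wild-type cells with DP, against 8.99, 9.06 and 8.81 with ethanol (0.48 ± 0.11, adjusted p = 0.0246). Its adjusted p was 0.0599 with the line as a block, and the call was lost without the DP array of line 3 (0.51, adjusted p = 0.0569), 4 (0.52, 0.0553) or 5 (0.41, 0.126) or the ethanol array of line 3 (0.49, 0.0595) or 5 (0.40, 0.0908). Of the 5 other probe sets of Asph, 4 did not pass in wild-type cells (0.42, 0.19, 0.05 and 0.63, limma adjusted p = 0.171, 0.645, 0.931 and 0.119) and 1 did. None of the 4 enzymes of lipid and carnitine metabolism was called with DP in either genotype, at unadjusted p under 0.05 by limma 1 was in dKO cells (Phyh, -0.34 ± 0.10) and 0 in wild-type cells.

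**Figure D2:**
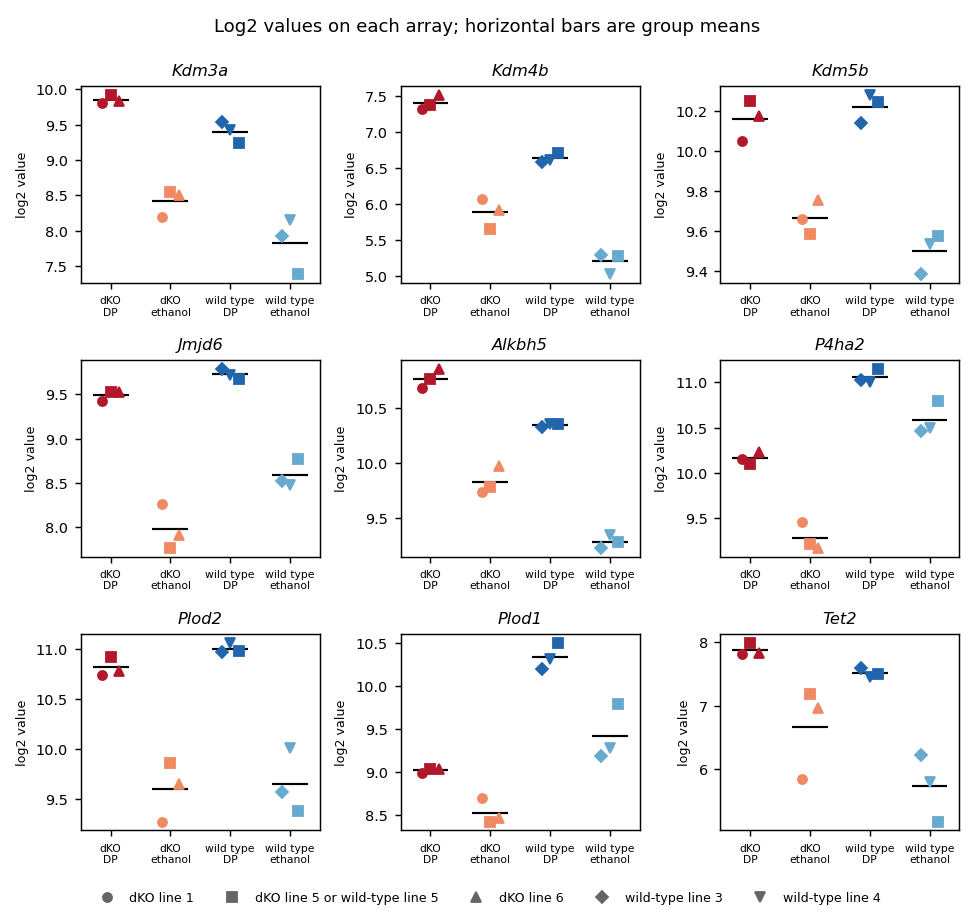
Log2 value on each array for 9 genes called with DP in 1 or both genotypes; symbols mark the MEF line, horizontal bars the group mean, and groups run dKO DP, dKO ethanol, wild-type DP and wild-type ethanol. The DP arrays lie above the ethanol arrays of their genotype in every panel, and each vertical axis has its own range that does not start at 0.

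The promoters of the members that rose in both genotypes are shown because HIF dimers are known to bind the core motif ACGTG or GCGTG, and those letters in either orientation are in capitals. Sequences run 5' to 3' on the gene's strand, 250 bases before to 50 after the most upstream RefSeq start listed (GRCm38.p6). P4ha3, which was not called with DP, is given as an example without a match, though other uncalled members held matches.
Kdm3a: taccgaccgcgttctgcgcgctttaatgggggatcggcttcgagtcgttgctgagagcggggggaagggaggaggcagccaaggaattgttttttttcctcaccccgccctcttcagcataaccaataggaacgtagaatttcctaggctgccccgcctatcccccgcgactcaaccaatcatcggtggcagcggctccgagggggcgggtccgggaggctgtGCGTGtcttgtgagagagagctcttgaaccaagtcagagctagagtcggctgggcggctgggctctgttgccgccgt
Kdm5b: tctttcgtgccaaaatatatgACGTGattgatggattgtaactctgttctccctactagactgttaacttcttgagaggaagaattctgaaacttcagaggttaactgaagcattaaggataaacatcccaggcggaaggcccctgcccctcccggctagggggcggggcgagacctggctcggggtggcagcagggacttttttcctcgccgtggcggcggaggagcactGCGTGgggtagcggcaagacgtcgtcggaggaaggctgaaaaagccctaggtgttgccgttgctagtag
Jmjd6: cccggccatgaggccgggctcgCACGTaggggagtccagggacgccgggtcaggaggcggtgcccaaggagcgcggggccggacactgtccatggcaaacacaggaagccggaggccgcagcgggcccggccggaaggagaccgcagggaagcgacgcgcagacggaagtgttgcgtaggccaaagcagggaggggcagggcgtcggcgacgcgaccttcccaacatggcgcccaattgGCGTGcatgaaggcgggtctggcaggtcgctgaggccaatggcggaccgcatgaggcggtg
Alkbh5: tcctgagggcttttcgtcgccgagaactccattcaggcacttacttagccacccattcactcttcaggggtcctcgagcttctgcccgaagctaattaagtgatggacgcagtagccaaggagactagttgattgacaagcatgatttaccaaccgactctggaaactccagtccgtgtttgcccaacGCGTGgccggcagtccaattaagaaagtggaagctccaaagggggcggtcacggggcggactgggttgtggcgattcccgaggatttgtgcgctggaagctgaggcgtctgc
P4ha2: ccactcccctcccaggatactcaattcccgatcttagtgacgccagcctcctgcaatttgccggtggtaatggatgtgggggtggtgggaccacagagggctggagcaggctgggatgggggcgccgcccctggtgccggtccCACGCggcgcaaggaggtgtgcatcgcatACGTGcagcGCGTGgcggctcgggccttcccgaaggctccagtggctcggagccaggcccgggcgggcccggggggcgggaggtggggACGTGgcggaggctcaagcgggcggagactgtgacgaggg
P4ha3: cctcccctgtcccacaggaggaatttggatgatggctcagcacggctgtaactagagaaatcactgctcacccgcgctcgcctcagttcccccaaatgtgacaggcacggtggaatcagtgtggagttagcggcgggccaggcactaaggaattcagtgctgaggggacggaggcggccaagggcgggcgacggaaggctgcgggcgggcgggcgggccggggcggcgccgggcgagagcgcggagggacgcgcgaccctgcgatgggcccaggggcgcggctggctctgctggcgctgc

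These windows lie at chr6:71632868-71633167 on the minus strand for Kdm3a, chr1:134559928-134560227 on the plus strand for Kdm5b, chr11:116843400-116843699 on the minus strand for Jmjd6, chr11:60537433-60537732 on the plus strand for Alkbh5, chr11:54100674-54100973 on the plus strand for P4ha2 and chr7:100285270-100285569 on the plus strand for P4ha3. Each covers the end of the upstream region and the first transcribed bases of its gene. P4ha2 held 4 matches, Kdm5b and Jmjd6 2 each, Kdm3a and Alkbh5 1 each, and P4ha3 0. Plod3 and Kdm6a, which were not called with DP, held 4 each, as many as P4ha2. Of the 3 windows of Kdm3a, 1 held a match. RefSeq windows were matched by symbol for 33 of the 40 members, and Kdm4b and Plod2 were not among them. All 5 members that rose in both genotypes and had a window held a match, as did 2 of 3 called higher in wild-type cells alone (Tet2 and Plod1, not Tet3), 11 of 24 not called with DP and 18 of 33 overall (54.5%). Of the 27025 genes with a window, 43.8% held a match, so the motif is common. ACGTG also lies within the E-box CACGTG, a match is a description of letters and not of binding, and the members were chosen with results of these data known.

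No member passed the test of whether DP acted differently in the genotypes (effect in dKO minus effect in wild type), 0 of 40 by limma, while 0.562% of all genes did, 0.0468% higher and 0.515% lower. At an unadjusted p under 0.05 there were 4: Kdm2a (-0.43 ± 0.17), Tet3 (-0.43 ± 0.14), Alkbh1 (0.40 ± 0.14) and P4ha2 (0.40 ± 0.16), of which Tet3 had the smallest adjusted p, 0.451. Kdm2a was dim, with group means of 3.54 to 3.83 log2, and its difference was -0.27 without the 2 ethanol arrays that stood apart. Each alternative fit of the difference also called 0 members, with 3 to 12 at an unadjusted p under 0.05 and the smallest adjusted p, 0.0646, with array weights. The 95% interval of the difference lay between -0.66 and 0.38 log2 for Kdm3a, -0.28 and 0.45 for Kdm4b, -0.41 and 0.15 for Alkbh5, -0.00 and 0.76 for Jmjd6 and -0.64 and 0.37 for Plod2. Of the 5 members called in wild-type cells alone, it lay between -1.51 and 0.36 for Tet2, -0.88 and 0.03 for Plod1 and -0.59 and 0.09 for Asph. The unadjusted intervals of Alkbh1 and Tet3, also called there alone, and of P4ha2, called in both genotypes, left out 0. These intervals do not show that the responses were alike. The 2 DP comparisons share no arrays.

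Between genotypes the histone demethylases called were all higher in dKO cells and the procollagen hydroxylases called were all lower, while the AlkB enzymes (3 higher and 1 lower), other JmjC proteins (2 and 1) and other protein hydroxylases (3 and 1) held calls both ways in ethanol. Whether direction goes with class was not tested. In ethanol 25 of 40 members were called (62.5%), 17 higher and 8 lower in dKO, while 33.6% of all genes were called, 19.5% higher and 14.1% lower. Under DP 21 were called (52.5%), 14 higher and 7 lower, while 35.4% of all genes were called, 18.5% higher and 16.9% lower. Part of the distance from the background goes with brightness, since 53.1% of all genes and 75.0% of 36 members were called in ethanol, and 54.6% and 63.9% under DP, once the dimmest 40% of genes were left out. Called in both treatments were 19 members, in ethanol alone 6 and under DP alone 2. The median difference over the members was 0.36 log2 in ethanol and 0.34 under DP, beside -0.01 in both over all genes. With cyclic loess between arrays, 13 members were called higher and 11 lower under DP (54.2% of calls higher, against 66.7%). In ethanol 14 members were called higher and 8 lower (63.6% higher, against 68.0%). Of the calls over all genes, 46.2% in ethanol and 44.3% under DP were higher, against 58.1% and 52.4%. Once that beta-actin measure, which moves with the groups, was entered into the fit, 6 members stayed called in ethanol (Jmjd8, P4ha2, P4ha3, P4htm, Phf2 and Phf8) and 6 under DP (Alkbh7, P4ha2, P4ha3, Phf2, Phf8 and Plod1), where Jmjd8 was also called. Of all genes that fit called 1128 in ethanol and 1025 under DP, against 5740 and 6057 without the measure. The part of the markers, of other cell types too, and the sex-linked genes given above in these differences was not tested.

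**Figure D3:**
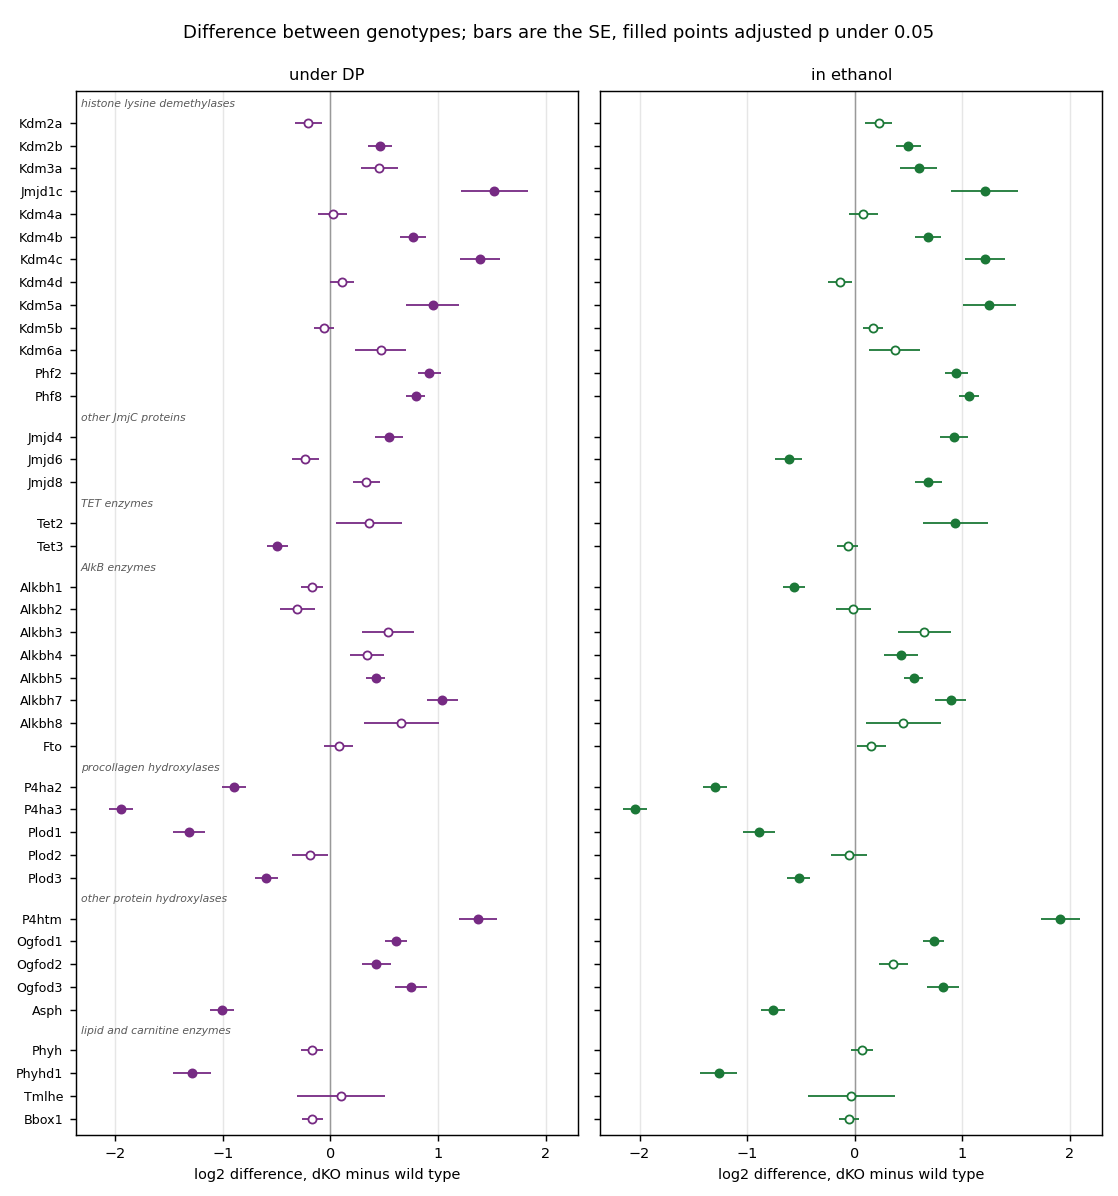
Difference between genotypes for each of the 40 measured genes (log2, dKO minus wild type, horizontal axis) under DP on the left and in ethanol on the right. Points are limma estimates from 3 lines a group, bars are the SE, and filled points passed an adjusted p of 0.05. All filled histone demethylases lie to the right of 0, and P4ha2, P4ha3, Plod1 and Plod3 lie to the left in both panels.

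Of 5 procollagen hydroxylases, 4 were called lower in the dKO cells in both treatments, beside 14.1% of all genes in ethanol and 16.9% under DP. P4ha3 read 5.05, 5.06 and 4.91 log2 in dKO cells in ethanol, against 6.88, 7.27 and 7.01 in wild-type cells. P4ha3 under DP read 5.03, 5.20 and 4.91 in dKO cells, against 7.02, 7.01 and 6.94 in wild-type cells. P4ha3, another catalytic subunit of the prolyl hydroxylase, was thus at 0.243 of the wild-type value in ethanol (-2.04 ± 0.11 log2, adjusted p = 7.71e-08) and 0.259 under DP (-1.95 ± 0.11, adjusted p = 9.93e-08), the largest difference in size of any member. P4ha2, whose arrays are given with the DP results, differed by -1.30 ± 0.11 (adjusted p = 2.23e-06) and -0.89 ± 0.11 (adjusted p = 4.23e-05). The dKO cells with DP, though raised, stayed under the wild-type cells with ethanol on every array of P4ha2. Plod1 differed by -0.89 ± 0.15 in ethanol (adjusted p = 0.000412) and -1.32 ± 0.15 under DP (adjusted p = 1.7e-05), and Plod3, which also glycosylates collagen lysines, by -0.52 ± 0.10 (adjusted p = 0.00165) and -0.60 ± 0.10 (0.000621). The other probe set of Plod1 differed by 0.11 in ethanol, against the direction of the gene, and by -0.06 under DP (limma adjusted p = 0.522 and 0.715). Plod2 differed by -0.05 ± 0.17 in ethanol (adjusted p = 0.845) and -0.19 ± 0.17 under DP (0.423). The summed level of the fibroblast markers, which include collagen chains, moved the same way as these 4 genes.

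Of 13 histone demethylases, 8 were called higher in dKO cells in ethanol and 7 under DP, and none was called lower. That is 61.5% and 53.8% of the class, beside 33.6% and 35.4% of all genes, of which 19.5% and 18.5% were higher. With the dimmest 40% of genes left out, 53.1% and 54.6% of all genes were called, though the 13 were not filtered this way. With the beta-actin measure in the fit, 2 of the 13, Phf2 and Phf8, stayed called in each treatment. Phf8 read 8.00, 7.97 and 7.91 log2 in dKO cells in ethanol, against 6.98, 6.85 and 6.87 in wild-type cells. Phf8 under DP read 7.82, 7.71 and 7.67 in dKO cells, against 6.92, 7.05 and 6.85 in wild-type cells. Phf8 is X-linked, and it differed by 1.06 ± 0.09 in ethanol (adjusted p = 1.84e-06) and 0.79 ± 0.09 under DP (adjusted p = 1.76e-05), with no overlap in either treatment. Phf2 read 9.14, 8.81 and 8.87 log2 in dKO cells in ethanol, against 7.92, 7.94 and 8.12 in wild-type cells. Phf2 under DP read 8.87, 8.83 and 8.82 in dKO cells, against 7.80, 7.93 and 8.02 in wild-type cells. Phf2, its autosomal relative, differed by 0.94 ± 0.11 (adjusted p = 1.87e-05) and 0.92 ± 0.11 (2.26e-05). Kdm4c read 7.50, 8.23 and 8.05 log2 in dKO cells in ethanol, against 6.83, 6.97 and 6.34 in wild-type cells. Kdm4c under DP read 8.45, 8.47 and 8.36 in dKO cells, against 7.10, 7.07 and 6.94 in wild-type cells. Kdm4c, a paralogue of Kdm4b, differed by 1.21 ± 0.18 in ethanol (adjusted p = 0.000204) and 1.39 ± 0.18 under DP (adjusted p = 6.42e-05), so that each dKO array exceeded each wild-type array of the same treatment. The other probe sets of Phf2 and Phf8 lay between 3.28 and 3.60 log2 on average, near or just above the blank controls, and their differences were at most 0.19 in size.

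Kdm5a read 8.33, 9.31 and 9.03 log2 in dKO cells in ethanol, against 7.98, 7.87 and 7.08 in wild-type cells. Kdm5a under DP read 9.42, 9.40 and 9.51 in dKO cells, against 8.50, 8.47 and 8.51 in wild-type cells. Kdm5a thus stood higher on every dKO array than on any wild-type array of the same treatment. Jmjd1c read 7.76, 9.0 and 8.67 log2 in dKO cells in ethanol, against 7.61, 7.64 and 6.55 in wild-type cells. Jmjd1c under DP read 9.32, 9.29 and 9.33 in dKO cells, against 8.02, 7.66 and 7.68 in wild-type cells. In ethanol, in both genes, dKO line 1 and wild-type line 5 were lowest, yet the genotypes did not overlap. Kdm5a differed by 1.25 ± 0.24 in ethanol (adjusted p = 0.00137) and 0.95 ± 0.24 under DP (0.0085), and Jmjd1c by 1.21 ± 0.31 (adjusted p = 0.00829) and 1.52 ± 0.31 (0.00177). Kdm4b was higher in dKO cells by 0.68 ± 0.12 and 0.77 ± 0.12 (adjusted p = 0.0006 and 0.000237), and Kdm2b, which binds CpG islands with a Polycomb complex, by 0.50 ± 0.11 and 0.46 ± 0.11 (0.00382 and 0.00636). Kdm3a was called in ethanol (0.59 ± 0.17, adjusted p = 0.0158) and not under DP (0.45 ± 0.17, adjusted p = 0.0553, or 0.00253 without the 2 ethanol arrays that stood apart). The ethanol call of Kdm3a was lost without dKO line 5 (0.53, adjusted p = 0.0577) or line 6 (0.55, 0.0581), and under cyclic loess (0.44, 0.0797). Kdm5b differed by 0.17 and -0.06, and Kdm6a by 0.37 ± 0.24 and 0.47 ± 0.24 (adjusted p = 0.272 and 0.154). Without the 2 ethanol arrays that stood apart, Kdm6a was called higher in dKO cells under DP (0.47, adjusted p = 0.00346) and not in ethanol (0.35, 0.0533).

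P4htm read 6.19, 5.98 and 6.25 log2 in dKO cells in ethanol, against 4.61, 4.10 and 3.98 in wild-type cells. P4htm under DP read 6.20, 5.68 and 5.74 in dKO cells, against 4.72, 4.35 and 4.45 in wild-type cells. P4htm, a prolyl hydroxylase anchored in the endoplasmic reticulum membrane, was 3.75-fold higher in dKO cells in ethanol (1.91 ± 0.18 log2, adjusted p = 4.31e-06) and 2.58-fold under DP (1.37 ± 0.18, adjusted p = 6.04e-05), the largest rise of any member in ethanol. Asph read 8.04, 8.34 and 8.20 log2 in dKO cells in ethanol, against 8.99, 9.06 and 8.81 in wild-type cells. Asph under DP read 8.43, 8.50 and 8.33 in dKO cells, against 9.37, 9.35 and 9.57 in wild-type cells. Asph was lower in dKO cells, with a difference of -0.76 ± 0.11 in ethanol (adjusted p = 0.000143) and -1.01 ± 0.11 under DP (adjusted p = 1.39e-05), on its brightest probe set. Of its 5 other probe sets, 1 differed by 0.10 in ethanol (adjusted p = 0.834), against the direction of the gene, and that probe set by -0.60 under DP (adjusted p = 0.135). Another 3, dim ones, differed by -0.28, -0.09 and -0.14 in ethanol and by -0.25, -0.38 and -0.23 under DP without passing, so 1 of the 5 passed in both treatments (-0.67 and -0.76, adjusted p = 0.0184 and 0.00905).

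Ogfod1, which hydroxylates a proline of a small ribosomal subunit protein, differed by 0.73 ± 0.10 in ethanol (adjusted p = 8.6e-05) and 0.61 ± 0.10 under DP (0.000367). Its other probe set pointed the other way, with -0.40 in ethanol (adjusted p = 0.0281) and -0.30 under DP (0.0864), and the mean of both passed in neither treatment, so the 2 probe sets disagree on this gene. Ogfod3 was higher in dKO cells in both treatments (0.82 ± 0.15 and 0.75 ± 0.15, adjusted p = 0.00075 and 0.00153). Ogfod2 was called under DP (0.43 ± 0.13, adjusted p = 0.024) and in ethanol had 0.36 ± 0.13 (adjusted p = 0.0553), or 0.40 (adjusted p = 0.0142) without the 2 ethanol arrays that stood apart. The call of Ogfod2 was lost without the DP array of dKO line 1 (0.44, adjusted p = 0.0526) or 5 (0.34, 0.102), or of wild-type line 3 (0.38, 0.0815) or 5 (0.43, 0.0565), and under cyclic loess (0.30, 0.0741).

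Phyhd1 read 5.86, 5.83 and 5.59 log2 in dKO cells in ethanol, against 6.81, 6.92 and 7.34 in wild-type cells. Phyhd1 under DP read 5.63, 6.07 and 5.41 in dKO cells, against 6.84, 7.04 and 7.09 in wild-type cells. Phyhd1, a relative of the peroxisomal phytanoyl-CoA hydroxylase Phyh, was at 0.416 of the wild-type value in ethanol (-1.27 ± 0.17, adjusted p = 8.67e-05) and 0.41 under DP (-1.29 ± 0.17, adjusted p = 7.36e-05), with no overlap. It was the single called member of 4 in its class. Phyh itself differed by 0.07 ± 0.10 and -0.17 ± 0.10, Tmlhe, the X-linked first enzyme of carnitine synthesis, by -0.03 ± 0.41 and 0.10 ± 0.41, and Bbox1, the last, was near the blank controls in all groups.

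**Figure D4:**
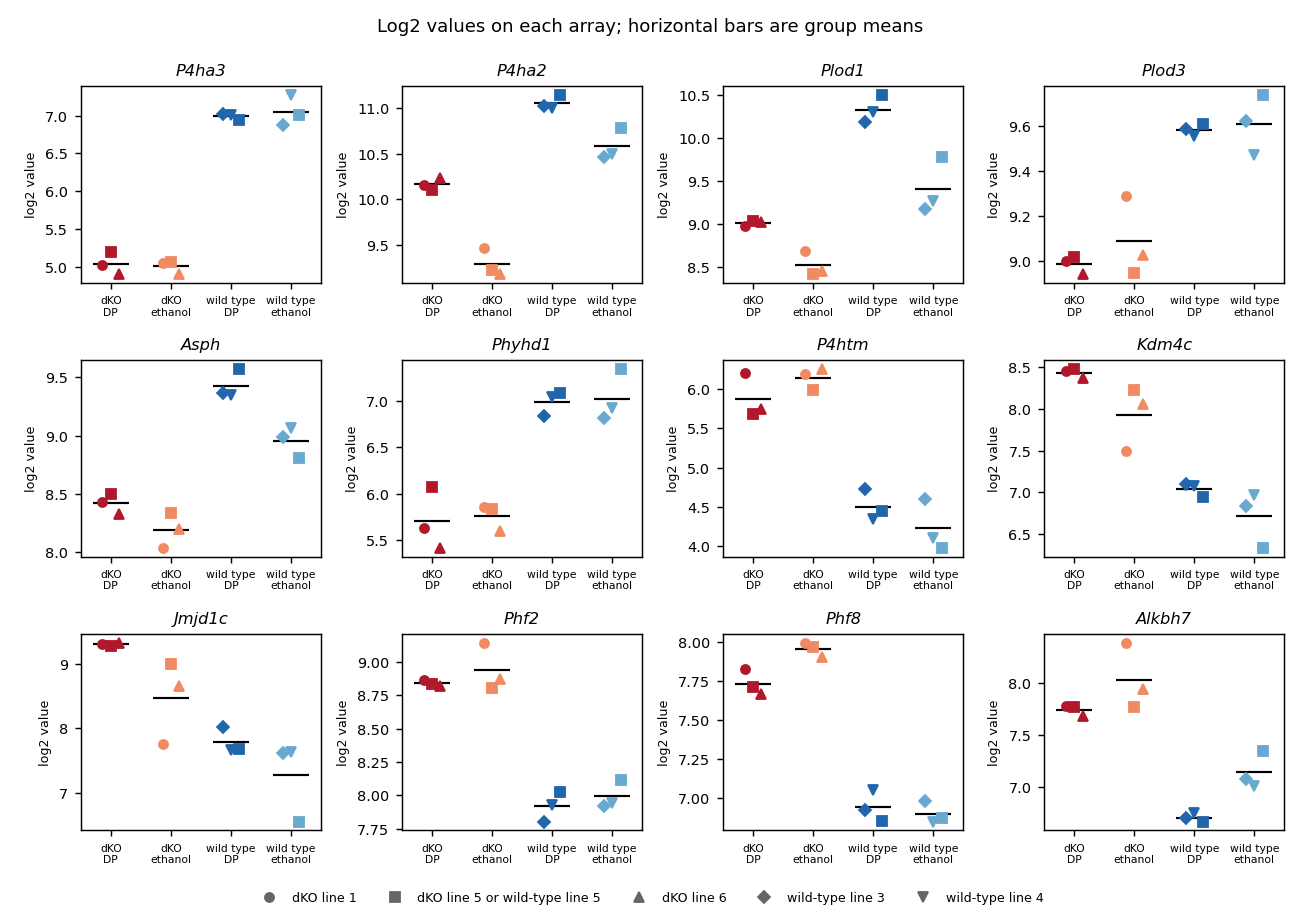
Log2 value on each array for 12 genes called between genotypes; symbols mark the MEF line, horizontal bars the group mean, and groups run dKO DP, dKO ethanol, wild-type DP and wild-type ethanol. In P4ha3 the dKO arrays read 4.91 to 5.20 and the wild-type arrays 6.88 to 7.27, and each vertical axis has its own range that does not start at 0.

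Among AlkB enzymes, Alkbh7 and Alkbh5 were higher in dKO cells in both treatments. Alkbh7 read 8.39, 7.77 and 7.94 log2 in dKO cells in ethanol, against 7.07, 7.0 and 7.35 in wild-type cells. Alkbh7 under DP read 7.78, 7.76 and 7.68 in dKO cells, against 6.69, 6.75 and 6.66 in wild-type cells. The difference of Alkbh7 was 0.89 ± 0.14 in ethanol (adjusted p = 0.000308) and 1.04 ± 0.14 under DP (adjusted p = 8.61e-05), and that of Alkbh5 was 0.55 ± 0.09 and 0.42 ± 0.09 (adjusted p = 0.000419 and 0.00284). Alkbh1 was lower in dKO cells in ethanol (-0.57 ± 0.10, adjusted p = 0.000767) and differed by -0.17 ± 0.10 under DP (adjusted p = 0.234). Alkbh4 only just passed in ethanol (0.43 ± 0.16, adjusted p = 0.0498), and had an adjusted p of 0.0508 with the line as a block and 0.0812 (0.33) without the 2 ethanol arrays that stood apart. Leaving those out, it was called under DP instead (0.34, adjusted p = 0.0267, against 0.116 with all arrays). The ethanol call of Alkbh4 was also lost without the ethanol array of dKO line 1 (0.25, adjusted p = 0.173) or 6 (0.45, 0.0898), or of wild-type line 3 (0.39, 0.133) or 4 (0.40, 0.129).

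Alkbh3 and Alkbh8, a DNA repair enzyme and a modifier of the transfer RNA wobble base, differed by 0.65 ± 0.24 and 0.45 ± 0.35 in ethanol without passing. Leaving out the 2 ethanol arrays that stood apart, both were called higher in dKO cells in ethanol (0.66 and 0.54, adjusted p = 0.00773 and 0.0199) and under DP (0.53 and 0.66, adjusted p = 0.00676 and 0.00155). Fto differed by 0.15 ± 0.13 in ethanol (adjusted p = 0.433) and 0.08 ± 0.13 under DP (0.703).

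Tet2 was higher in dKO cells in ethanol (0.93 ± 0.30, adjusted p = 0.0308) although the genotypes overlapped, and differed by 0.36 ± 0.30 under DP (adjusted p = 0.409, or 0.0263 without the 2 ethanol arrays that stood apart). The ethanol call was lost without dKO line 5 (0.67, adjusted p = 0.129) or 6 (0.78, 0.118), without wild-type line 4 (0.97, 0.0608) or 5 (0.66, 0.123), and under cyclic loess (0.72, 0.118). Tet3 was lower in dKO cells under DP (-0.49 ± 0.10, adjusted p = 0.00147) and differed by -0.06 ± 0.10 in ethanol (adjusted p = 0.667). Of the other JmjC proteins, Jmjd4 was higher in dKO cells in both treatments (0.92 ± 0.13 and 0.54 ± 0.13, adjusted p = 0.000118 and 0.00566). The other probe set of Jmjd4 differed by 0.006 in ethanol (limma adjusted p = 0.981) and 0.06 under DP (0.793). Jmjd8 was higher in ethanol (0.68 ± 0.12, adjusted p = 0.000772; 0.33 ± 0.12 and 0.053 under DP, or 0.0435 without the 2 ethanol arrays that stood apart). Jmjd6 was lower in dKO cells in ethanol (-0.61 ± 0.12, adjusted p = 0.0018) and differed by -0.24 ± 0.12 under DP (adjusted p = 0.17, or 0.0241 without the 2 that stood apart), where it was raised in both genotypes.

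The lines agreed closely under DP and less so in ethanol. The median SD of a member within a group was 0.09 in dKO DP, 0.18 in dKO ethanol, 0.08 in wild-type DP and 0.17 in wild-type ethanol, and the widest spread was that of Tmlhe in both ethanol groups (0.85 in dKO and 0.82 in wild type). In 8 members, Jmjd1c, Kdm4c, Kdm5a, Kdm6a, Tet2, Alkbh3, Alkbh8 and Tmlhe, the ethanol array of dKO line 1 lay at least 0.5 log2 under the mean of the other dKO ethanol arrays and that of wild-type line 5 as far under the other wild-type ones. These are 20.0% of the members, beside 6.50% of all genes and 11.8% of the 8917 genes that averaged 5 log2 or more. Across the 40 members the deviations of the 2 arrays had a Pearson correlation of 0.926, and across those brighter genes 0.844, given as a description across genes that share both arrays and are not independent replicates. Leaving both arrays out gave 9 called members with DP in dKO cells, 14 in wild-type cells, 27 between genotypes in ethanol and 30 under DP, and 0 for the difference between the DP effects. Calls over all 17097 genes also rose, to 284, 1061, 6352, 7661 and 111 in that order, from 256, 808, 5740, 6057 and 96. The 9 member calls gained between genotypes under DP rest on the same DP arrays and the same differences, with a smaller SE.

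**Figure D5:**
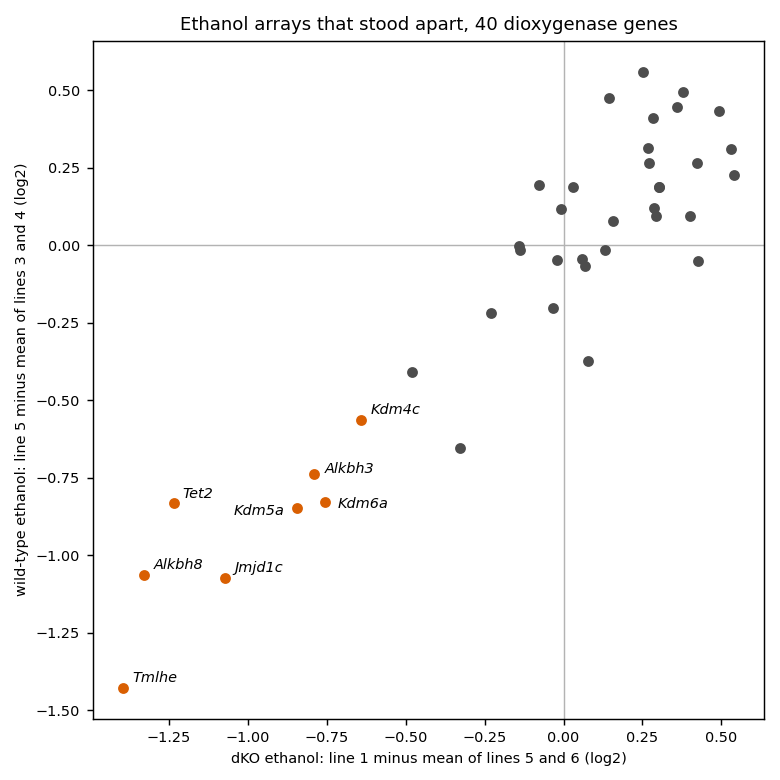
Deviation of the ethanol array of dKO line 1 from the mean of dKO lines 5 and 6 (horizontal axis, log2) and of wild-type line 5 from the mean of wild-type lines 3 and 4 (vertical axis, log2), 1 point for each of the 40 genes. The 8 named points lie at or under -0.5 on both axes.

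Lists of genes that work beside the family held 0 or 1 called gene each with DP, beside the 1.5% of all genes called in dKO and 4.73% in wild-type cells. Of 14 further 2-oxoglutarate dioxygenases, Hspbap1, a JmjC protein, was called lower in both genotypes (-0.60 ± 0.12 in dKO and -0.55 ± 0.12 in wild-type cells, adjusted p = 0.0234 and 0.0162) and the other 13 were not called. None of 20 measured genes of 24 for the supply and turnover of 2-oxoglutarate, succinate and ascorbate was called with DP in either genotype, where limma gave 0 in dKO and 1 in wild-type cells at an unadjusted p under 0.05. The same held for the 6 partners of the collagen hydroxylases (0 in dKO and 1 in wild-type cells) and for the 2 flavin-dependent demethylases (0 in dKO and 0 in wild-type cells), which need no iron. Of 17 measured methyltransferases of histones, DNA and RNA among 21 listed, Setd1b, a writer of the active promoter mark, was lower with DP (-0.62 ± 0.11 in dKO and -0.73 ± 0.11 in wild-type cells, adjusted p = 0.0159 and 0.00181).

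Between genotypes more genes of these lists were called, as of all genes (33.6% in ethanol and 35.4% under DP). Of the 17 methyltransferases, 8 were higher and 1 lower in dKO cells in ethanol and 9 and 1 under DP, among them Ezh1 (0.97 ± 0.12 and 0.90 ± 0.12), Nsd1 (0.90 ± 0.23 and 0.98 ± 0.23) and Kmt2c (0.95 ± 0.26 and 0.81 ± 0.26). That is 52.9% of them in ethanol and 58.8% under DP, beside the 33.6% and 35.4% of all genes. Once the dimmest 40% of genes were left out, 53.1% and 54.6% of all genes were called, though the 17 were not filtered this way. Of the 6 collagen hydroxylase partners, 3 were lower in ethanol and 4 under DP, led by the collagen galactosyltransferase Colgalt1 (-1.01 ± 0.11 and -1.22 ± 0.11, adjusted p = 1.63e-05 and 3.04e-06) and the collagen chaperone Serpinh1 (-0.43 ± 0.08 and -0.48 ± 0.08, 0.00147 and 0.00059). Of the 20 cosubstrate genes, 4 were higher and 2 lower in ethanol (30.0%) and 2 and 2 under DP (20.0%), no more than among all genes. Idh1, which makes 2-oxoglutarate in the cytosol, was lower in dKO cells (-1.0 ± 0.15 and -1.07 ± 0.15, adjusted p = 0.000208 and 0.000116), as was mitochondrial Idh2 (-0.58 ± 0.15 and -0.67 ± 0.15), while the ascorbate carrier Slc23a2 was higher (0.86 ± 0.10 and 0.66 ± 0.10). Of the 14 further dioxygenases, 1 was higher and 1 lower in ethanol, and 1 and 4 under DP: the demethylase Kdm7a was higher (1.51 ± 0.42 and 1.85 ± 0.42) and the prolyl hydroxylase P3h2 lower (-0.50 ± 0.15 and -0.95 ± 0.15) in both. The flavin-dependent Kdm1a was higher in both (0.38 ± 0.09 and 0.27 ± 0.09).

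In 11 members, Kdm2a, Kdm4a, Kdm4d, Kdm6a, Alkbh2, Alkbh3, Alkbh8, Fto, Phyh, Tmlhe and Bbox1, none of the 5 contrasts was called with all arrays. Of these, Kdm6a, Alkbh2, Alkbh3 and Alkbh8 gained a call without the 2 ethanol arrays that stood apart. Their group means ran between 2.86 and 8.15 log2, and Kdm4a, Kdm4d and Bbox1 were near the blank controls in all groups, where a change is understated. Their largest difference in size was 0.66, for Alkbh8 between genotypes under DP. Alkbh2, which repairs alkylated DNA beside Alkbh3, differed by at most 0.31 in size in any contrast, -0.31 between genotypes under DP (adjusted p = 0.171, or 0.0321 without those arrays).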

How the data were processed

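The authors deposited log2 expression values of 45141 probe sets, which the submitters' processing notes credit to RMA and Affymetrix Expression Console 1.1. That method subtracts background, makes arrays comparable and reduces the probes of a set to 1 value. Per the labels' protocols 100 ng of RNA was labelled by a 3'-primed method. The sources used here give no genome build or scanner.

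Control probe sets (104) were set aside, as were 551 with several symbols and 15588 with none. The 28898 with 1 symbol gave 17097 genes, each represented by its brightest probe set, with no filter on dim genes. Differences were fitted to all 12 arrays with limma 3.58.1 (R 4.3.3, lmFit and eBayes) as 4 group means and 5 contrasts, with p adjusted by Benjamini-Hochberg over all genes of a contrast. A value after ± is the moderated SE unless called an SD. A group mean at or under the 95th percentile of its blank control probe sets was called near the blank controls. The script was tested on simulated data. Tables and figures used Python 3.11.15. The 3 arrays a group limit the precision.

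Alternatives changed the scaling (cyclic loess or median centring), the spread (intensity trend, robust eBayes or array weights) or the arrays (only those compared, each left out, or both ethanol arrays that stood apart left out). Others took the MEF line as a replicate block, a beta-actin 3' minus 5' covariate, the mean of probe sets, each other probe set, no dim genes, or a minimum change of 1.5-fold. The pairing comes from the labels, where a numbered MEF line got both treatments. As a check over 8917 genes that averaged 5 log2 or more, the deviation of a line's DP array from its group mean was correlated with that of its ethanol array. Pearson's r was 0.04 for dKO line 1, 0.32 for line 5 and 0.36 for line 6, and 0.42 for wild-type line 3, 0.06 for line 4 and 0.33 for line 5.

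The members, the lists of other genes and markers, and the alternatives were chosen with earlier results of these data known. Every member is accounted for. Those called in any contrast are given with values, and certain members (Kdm3a, Kdm4b, Kdm4c, P4ha2, Plod1, Plod2, Tet2, Tet3, Fto, Alkbh5, Kdm5a and Kdm6a) whether or not they passed. Of each other list, only called genes are named, at most 4. Macrophage, endothelial, epithelial, muscle, neural and erythroid marker lists gave 0 called members with DP in either genotype, and their counts between genotypes are given with the results.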

Additional observations from a re-analysis of the deposited data

How the results depend on the processing

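With the MEF line as a replicate block, 8 members were called with DP in dKO cells, 11 with DP in wild-type cells, 24 between genotypes in ethanol and 21 under DP; the block changed no call other than those of Tet2, Asph and Alkbh4 given above. Leaving out each array in turn gave 6 to 7, 9 to 11, 22 to 27 and 20 to 22 called members in the same order, and the difference between the DP effects stayed at 0. Array weights called 14 members and 1477 of all genes with DP in dKO cells, against 7 and 256 without weights. The beta-actin 3' minus 5' covariate left 4 (Alkbh5, Jmjd6, Kdm3a and Kdm4b) with DP in dKO cells, 6 in wild-type cells (those 4 with Kdm5b and Plod2), 6 between genotypes in ethanol and 6 under DP, where Jmjd8 was added to make 7. Of all genes this covariate left 86, 350, 1128 and 1025 called in the same order, against 256, 808, 5740 and 6057 without it. All members called without it kept their sign, their differences were 1.00, 1.01, 0.910 and 0.903 times as large at the median, and their SE 1.54, 1.48, 2.22 and 2.29 times, since the covariate moves with the groups. Of the log2 differences of called members under other fits, 702 kept direction and call and 78 kept direction only, 43 of these with the covariate; leaving out single arrays, 361 and 29 did. Of other probe sets, 21 kept both, 28 kept direction only and 9 pointed the other way. In ethanol these 9 were Asph (0.10), Ogfod1 (-0.40), Phf2 (-0.081 and -0.17), Phf8 (-0.026) and Plod1 (0.11), and under DP Ogfod1 (-0.30), Phf2 (-0.028) and Phf8 (-0.13); the cause was not tested, and those of Phf2 and Phf8 were near the blank controls. The scaling alternatives moved the median of all genes by less than 0.1 log2 in each contrast. Dim members (Kdm4a, Kdm4d and Bbox1, near blank controls) could not show a small change.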
